A study of Oryctolagus cuniculus with 6 samples.

Results

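PTN, ITGBL1, TNMD, LIX1 and ITM2A are 5 genes, of 20225 features tested, that were chosen by their measured values: they were among the named genes with the largest difference between day 7 and day 3 of healing, in grafted and in unfilled skull defects of the rabbit. The 20225 features are named genes, or array identifiers where no gene name was found, with a signal well above background on at least 3 of 6 arrays, out of 23376 on the array. All 5 genes were found, and each was well above background on all 6 arrays. The arrays measured newly formed tissue of parietal bone defects in male New Zealand White rabbits aged 4 months. HPD defects were filled with 0.2 g of human particulated dentin, ground human tooth dentin used as a graft. Control defects were left empty. Each of the 24 rabbits had 4 circular defects of 5 mm, with HPD on the right side, so both treatments lay in the same animals. Tissue was taken on days 3, 5 and 7, and 1 array was run for each treatment and day. Whether an array held RNA of more than 1 animal is not given in the labels, so n = 1 per treatment and day. An SE or p-value of the main fit rests on how HPD minus control varied between the days, with 2 residual degrees of freedom. The limma fit adds 2.47 prior degrees of freedom drawn from all features. No SE or p-value here measures the spread between replicate arrays or animals.

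Bone defects in the skull heal through a clot and inflammatory tissue, which is replaced by a loose connective tissue from which bone-forming cells arise. Pleiotrophin, the product of PTN, is a secreted heparin-binding growth factor that binds the receptor phosphatase PTPRZ1 and cell surface syndecans. ITGBL1 encodes a secreted protein with repeats like those in the stalk of integrin beta chains, without the membrane-spanning part. TNMD encodes tenomodulin, a type II membrane protein known as a marker of tendon and ligament cells, and ITM2A encodes another type II membrane protein, known in the mouse from cartilage, muscle and T cells. Both carry a BRICHOS domain. LIX1 was first described in the developing limb of the chick.

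Each gene is read by probes of 60 bases, and the brightest probe over the 6 arrays stands for the gene. The 5 probes are shown because every level below is the signal of one of these sequences. Coordinates are on the oryCun2 rabbit build, as the array files give them. The PTN probe lies at chr7:1441932-1441991 on the minus strand, the ITGBL1 probe at chr8:103266786-103266845 on the plus strand, the TNMD probe at chrX:88777991-88778050, the LIX1 probe at chr11:16820444-16820503 and the ITM2A probe at chrX:70896381-70896440, the last 3 on the minus strand. Capitals mark bases shared with another probe of the same gene. They are 55 bases common to all 5 PTN probes, and 30 bases that the ITGBL1 probe shares with the probe just upstream.
PTN: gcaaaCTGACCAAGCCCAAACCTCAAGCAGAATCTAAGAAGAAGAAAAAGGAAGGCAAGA
ITGBL1: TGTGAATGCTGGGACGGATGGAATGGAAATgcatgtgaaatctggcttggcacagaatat
TNMD: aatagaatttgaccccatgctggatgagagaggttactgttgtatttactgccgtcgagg
LIX1: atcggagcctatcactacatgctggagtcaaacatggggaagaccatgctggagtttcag
ITM2A: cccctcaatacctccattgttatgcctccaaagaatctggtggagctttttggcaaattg

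Levels are log2 of the processed signal minus the array's 75th percentile, so a level of 0 is that percentile, and a difference of 1 is 2-fold. Between 78.1% and 86.4% of spots were well above background on an array and 0 were saturated. The share was 86.4% on the HPD and 84.2% on the control array of day 3. It was lower on the HPD array on day 5 (81.5% against 84.4%) and on day 7 (78.1% against 85.3%). The part of this in the differences between HPD and control was not tested. The file headers put both day 3 arrays on one slide and the 4 arrays of days 5 and 7 on another, so a difference between day 3 and a later day and a difference between slides cannot be told apart, while HPD and control of a day share a slide. The number of arrays limits the precision. In bulk tissue, more cells of a type and more RNA per cell cannot be told apart.

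The growth factor gene PTN was already high on day 5. Its level was -1.71 on day 3, 2.29 on day 5 and 1.82 on day 7 in HPD defects. In control defects it was -1.90, 2.11 and 2.45 on the same days. Both day 3 arrays lay far below the 4 later arrays, which did not order by treatment. PTN was 3.54 higher on day 7 than on day 3 in HPD defects, an 11.6-fold difference, and 4.35 in control defects, a 20.4-fold difference. The step from day 3 to day 5 was 4.00 in both treatments, whereas day 7 minus day 5 was -0.47 in HPD and 0.34 in control defects. PTN was thus the gene of the 5 with a lower level on day 7 than on day 5, and this held in HPD defects alone. Its 5 probes overlap almost wholly and are not independent readings; they gave day 7 minus day 3 values of 3.04 to 3.63 in HPD and 4.01 to 4.35 in control defects.

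For ITGBL1, most of the difference in HPD defects came after day 5. Its level was -0.84, 0.03 and 2.66 on days 3, 5 and 7 in HPD defects, and -0.97, 1.09 and 3.03 in control defects. The arrays of each day stood above all arrays of the day before. The difference between day 7 and day 3 was 3.50 in HPD defects (11.3-fold) and 4.01 in control defects (16.1-fold). By day 5, 24.9% of that difference had been reached in HPD defects, against 51.5% in control defects. Of its 4 probes, 2 span an exon junction, with ends 1013 bases apart on the genome, and all 4 were higher on day 7 in both treatments, by 2.88 to 3.50 in HPD and 3.40 to 4.01 in control defects. Neighbouring probes among the 4 overlap, so they are not independent readings.

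The tendon marker gene TNMD was read at a dim signal and was higher on each later day. Its level was -3.92, -3.12 and -1.11 on days 3, 5 and 7 in HPD defects, and -4.65, -1.56 and -0.65 in control defects. On day 5 the HPD array lay nearer to the day 3 arrays, and the control array nearer to the day 7 arrays. TNMD was higher on day 7 than on day 3 by 2.80 in HPD defects (6.99-fold) and by 4.00 in control defects (16.0-fold). By day 5, 28.3% of the difference had been reached in HPD and 77.2% in control defects. TNMD is read by 1 probe, which the array names myodulin.

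LIX1 was the dimmest of the 5 probes. Its level was -5.07, -3.22 and -2.37 on days 3, 5 and 7 in HPD defects, and -4.84, -2.36 and -1.83 in control defects. Both day 3 values lay close to the lowest signal well above background, which was -5.40 on the HPD array and -5.57 on the control array of that day. The difference between day 7 and day 3 was 2.71 in HPD defects (6.53-fold) and 3.01 in control defects (8.08-fold). The size for the dim probes depends on the background correction: with the normexp correction and an offset of 50, the mean of both treatments was 1.31 in place of 2.86 for LIX1 and 1.88 in place of 3.405 for TNMD.

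ITM2A, read at a bright signal, was lower in HPD than in control defects on days 5 and 7. Its level was 2.94, 4.37 and 5.15 on days 3, 5 and 7 in HPD defects, and 3.04, 5.92 and 6.49 in control defects. The day 3 arrays were alike, and both later HPD arrays lay below both later control arrays. ITM2A was higher on day 7 than on day 3 by 2.21 in HPD defects (4.63-fold) and by 3.45 in control defects (10.9-fold). All 6 probes of the gene, 2 of them across an exon junction with ends 297 bases apart, were higher on day 7 in both treatments, by 2.04 to 2.44 in HPD and 3.26 to 3.80 in control defects. Some of these probes overlap and are not independent readings. The probe with the largest values, 2.44 and 3.80, has coordinates that span 10 bases for its length of 60.

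**Figure D1:**
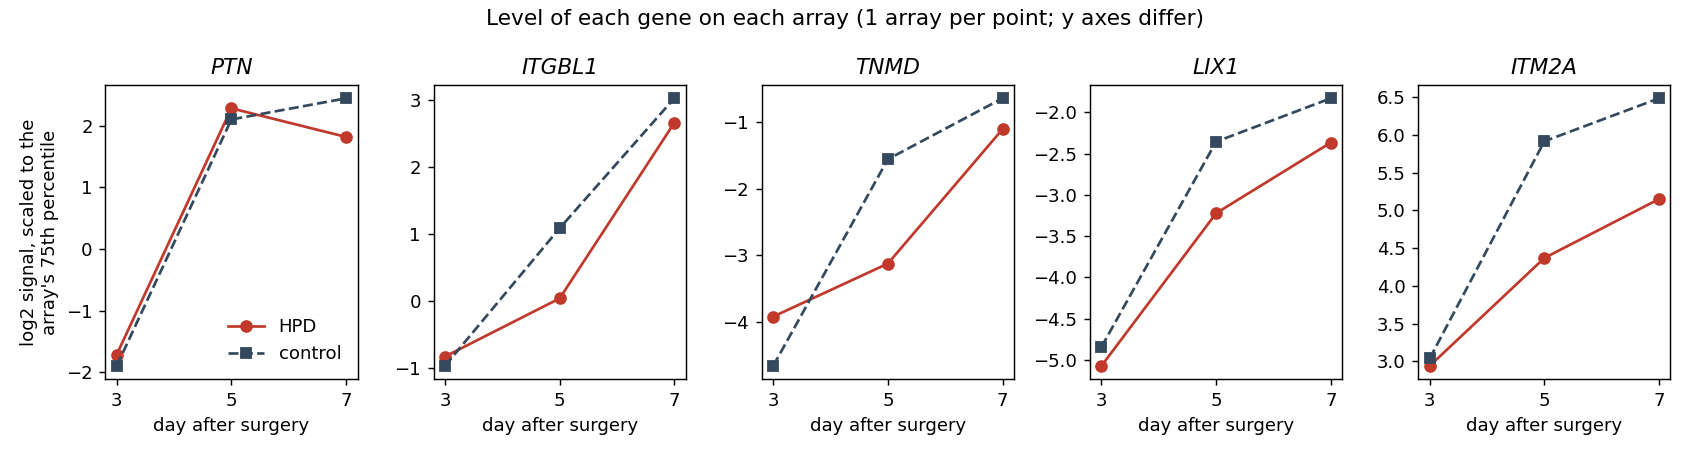
Level of each gene (log2 signal relative to the 75th percentile of its array; y axes differ between genes) against the day after surgery, with 1 array per point, HPD in solid red and control in dashed blue. Each gene is higher on day 7 than on day 3 in both treatments, and the HPD line lies below the control line on day 7 in all 5 panels.

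**Figure D2:**
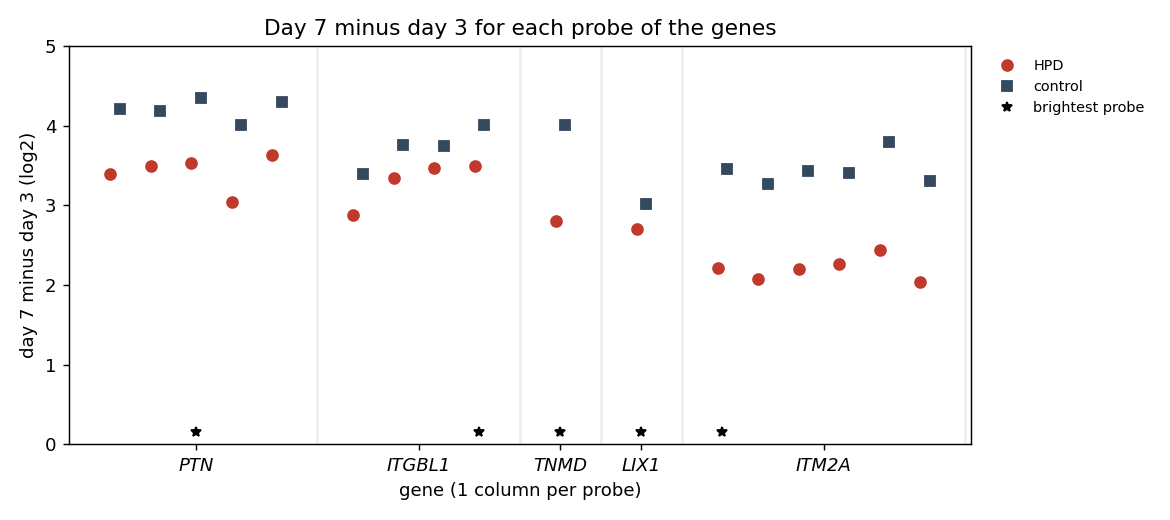
Day 7 minus day 3 (log2) for each probe of the 5 genes, HPD circles and control squares, with stars at the brightest probe of a gene. Every probe lies above 2 in both treatments, and the HPD value is below the control value for each probe.

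The order of the levels was read against limma's moderated residual SD of each gene in the fit with day and treatment. This SD is drawn towards the spread of all features, so it is not the gene's own SD. It was 0.27 for PTN, 0.32 for ITGBL1, 0.57 for TNMD, 0.22 for LIX1 and 0.40 for ITM2A. For ITGBL1 the order ran from control day 3 over HPD day 3, HPD day 5, control day 5 and HPD day 7 to control day 7, and the day 3 pair was the one pair of neighbours closer than its SD. TNMD had the same order, with control day 5, HPD day 7 and control day 7 each within an SD of the next. For LIX1 and ITM2A the order was HPD day 3, control day 3, HPD day 5, HPD day 7, control day 5 and control day 7. The neighbours within an SD were HPD day 7 and control day 5 for LIX1, and the day 3 pair for ITM2A. For PTN, the day 3 pair, the day 5 pair, and HPD day 5 with control day 7 lay within an SD of each other.

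The difference between day 7 and day 3 chose the genes, so it is given without a test. All 5 were at least 2-fold higher on day 7 in both treatments, as were 2.61% of all features, while 3.1% were at least 2-fold lower in both. Of all features, 34.4% were higher on day 7 in both treatments by any amount and 36.1% were lower in both, with a median difference of -0.01. In limma's fit of day 7 minus day 3 over all features, 0.00494% were called at an adjusted p under 0.05, and 20.9% had an unadjusted p under 0.05, made up of 10.7% higher and 10.1% lower. Ranked by the mean of both treatments among named genes higher in both, the 5 genes took places 3, 4, 7, 9 and 10. OGN stood first at 4.49, and DMP1, COL11A2, POSTN and OMD held the places between. ITM2A, the last of the 5, had a mean of 2.83, and GLT8D2 and ROBO1, just outside, had 2.83 and 2.82.

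The steps between the days differed among the 5. ITGBL1, TNMD, LIX1 and ITM2A were higher on each later day in both treatments, a pattern of 7.89% of all features, and the same 4 were higher on day 7 than on day 5 in both treatments, as were 37.7% of all features. The choice of the genes by day 7 minus day 3 favours both patterns, so these counts are descriptions. Those differences between day 7 and day 5 lie within 1 slide. They were largest for ITGBL1, at 2.63 in HPD and 1.94 in control defects, and for TNMD, at 2.01 in HPD and 0.91 in control defects. For LIX1 they were 0.86 in HPD and 0.53 in control defects, and for ITM2A 0.78 in HPD and 0.57 in control defects.

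**Figure D3:**
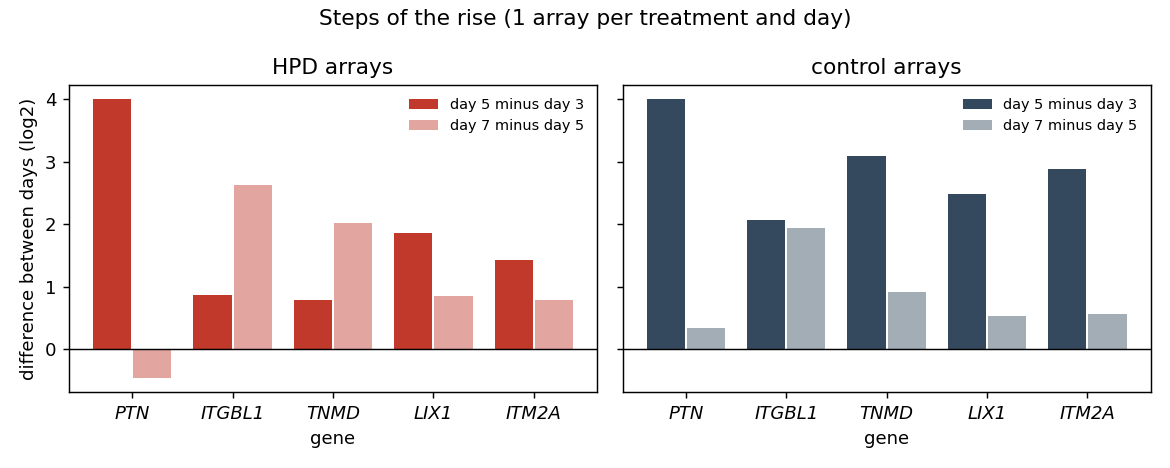
Difference in level (log2) between day 5 and day 3 (dark bars) and between day 7 and day 5 (light bars) for each gene, HPD arrays in the left panel and control arrays in the right, 1 array per treatment and day. For ITGBL1 and TNMD the later step is the larger one in HPD defects, and for TNMD the earlier step is the larger one in control defects.

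Day 5 was then set against the midpoint of days 3 and 7, a contrast that the choice of genes did not use. PTN lay 2.03 ± 0.23 above the midpoint on day 5 (SE, 6 arrays; 95% interval 1.41 to 2.66), with a mean level of 2.20 on day 5 and a midpoint of 0.17, and LIX1 lay 0.74 ± 0.19 above it (0.24 to 1.24). Neither passed limma's test after adjustment over all features (adjusted p = 0.449 for PTN and 0.484 for LIX1). Unadjusted, both were under 0.05, at 0.000589 and 0.0138, and higher, which held for 3.53% of all features, while 5.92% were lower and 9.45% were under 0.05 in either direction. With normexp, LIX1 lay 0.27 above the midpoint, at a limma unadjusted p of 0.124. ITM2A lay 0.74 ± 0.35 above the midpoint, TNMD 0.24 ± 0.49 above it, and ITGBL1 at -0.41 ± 0.28 below it, with limma adjusted p of 0.569, 0.886 and 0.643. The percentage of features called in this contrast was 0. Day 3 and its slide enter the midpoint, so slide cannot be told apart from this contrast either.

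The effect of the graft was asked of all 3 days together, in a limma fit with day as a block. All 5 estimates were negative, that is lower in HPD than in control defects, and none passed the test. The share of all features with a negative estimate was not counted. Their lower quartile was itself negative, at -0.096, so the 5 signs are a description. ITM2A averaged 4.15 over the days in HPD and 5.15 in control defects, a difference of -0.99 ± 0.33 (SE, 6 arrays; 95% interval -1.87 to -0.12; adjusted p = 0.556). LIX1 differed by -0.54 ± 0.18 (-1.02 to -0.07; adjusted p = 0.556). TNMD differed by -0.43 ± 0.46 (adjusted p = 0.722), ITGBL1 by -0.43 ± 0.26 (adjusted p = 0.587) and PTN by -0.09 ± 0.22 (-0.68 to 0.50; adjusted p = 0.891). The percentage of features called by limma was 0 of 20225. Unadjusted, limma gave 8.54% of features a p under 0.05, 7.14% higher and 1.4% lower in HPD defects. ITM2A (limma unadjusted p = 0.034) and LIX1 (0.032) were among those lower. LIX1 was at -0.31 with normexp, at a limma unadjusted p of 0.0688, and both genes were above 0.05 without day 5 and without day 7. The median difference over all features was 0.09, with a lower quartile of -0.096. ITM2A, LIX1, TNMD and ITGBL1 lay below that quartile. PTN lay above it, within the range of ordinary features, and its estimate was 0.18 without day 7.

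By single days, with 1 array a group and no test, the genes were set against control of the same day and slide. On day 3, PTN, ITGBL1 and TNMD were higher in HPD defects, by 0.18, 0.14 and 0.74, while LIX1 and ITM2A differed by -0.23 and -0.10; 35.5% of all features were lower in HPD defects on that day. The sign for ITM2A on day 3 is not stable, since 3 of its 6 probes were higher in HPD defects and the normexp value was 0.01, and that for ITGBL1 turned to -0.03 with scaling to the array median. The size for TNMD on day 3 depends on the processing, at 0.17 with normexp and 0.43 with quantile normalization. On day 5, 4 of the 5 were lower in HPD defects, against 41.5% of all features. The differences were -1.56 for TNMD, -1.55 for ITM2A, -1.05 for ITGBL1 and -0.87 for LIX1, with PTN at 0.18. On day 7 all 5 were lower, against 43.4% of all features, with ITM2A at -1.34, PTN at -0.63, LIX1 at -0.54, TNMD at -0.46 and ITGBL1 at -0.37.

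Of the genes at least 2-fold lower in HPD defects, day 5 held ITGBL1, TNMD and ITM2A, a size reached by 1.69% of features well above background on both arrays, and day 7 held ITM2A, against 0.845%. On day 5, ITGBL1 fell just short of that size with normexp (-0.94) and with quantile normalization (-0.99), and TNMD was at -0.81 with normexp. Features at least 2-fold higher made up 4.87% on day 5 and 1.63% on day 7. None of the 5 reached 2-fold in either direction on day 3, when 2.91% of features were at least 2-fold lower and 3.58% at least 2-fold higher. ITM2A was 2.92-fold lower in HPD defects on day 5 and 2.52-fold lower on day 7, and all 6 of its probes were lower on both days, by -1.89 to -1.48 on day 5 and -1.34 to -1.16 on day 7. ITGBL1, TNMD, LIX1 and ITM2A were lower in HPD defects on both day 5 and day 7, a pattern of 22.3% of features. LIX1 was lower on all 3 days, as was ITM2A by the brightest probe, with the unstable sign on day 3 given above; 11% of features were lower and 26.3% higher on all 3 days.

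Days 5 and 7, which share a slide, were also fitted alone. HPD and control share a slide on every day, so this fit differs from the one above by leaving out day 3. It has fewer residual degrees of freedom. The difference was -1.44 ± 0.19 for ITM2A, -1.01 ± 0.34 for TNMD and -0.71 ± 0.25 for ITGBL1 (SE, 4 arrays). For LIX1 it was -0.70 ± 0.20 and for PTN -0.22 ± 0.27. None passed limma's adjusted test, at an adjusted p of 0.6845 for the first 4 and 0.776 for PTN, and the percentage of features called was 0. The limma unadjusted p was 0.002 for ITM2A, 0.0266 for LIX1 and 0.0427 for TNMD, all lower in HPD defects, as were 1.49% of all features at a p under 0.05, with 5.74% in either direction. The difference between day 7 and day 3 was smaller in HPD than in control defects for all 5 genes, a direction shared by 58.3% of features. The gap was -1.24 for ITM2A, -1.20 for TNMD, -0.81 for PTN, -0.51 for ITGBL1 and -0.31 for LIX1. With 1 array per treatment and day there is no replicate for this gap, and it was not tested.

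**Figure D4:**
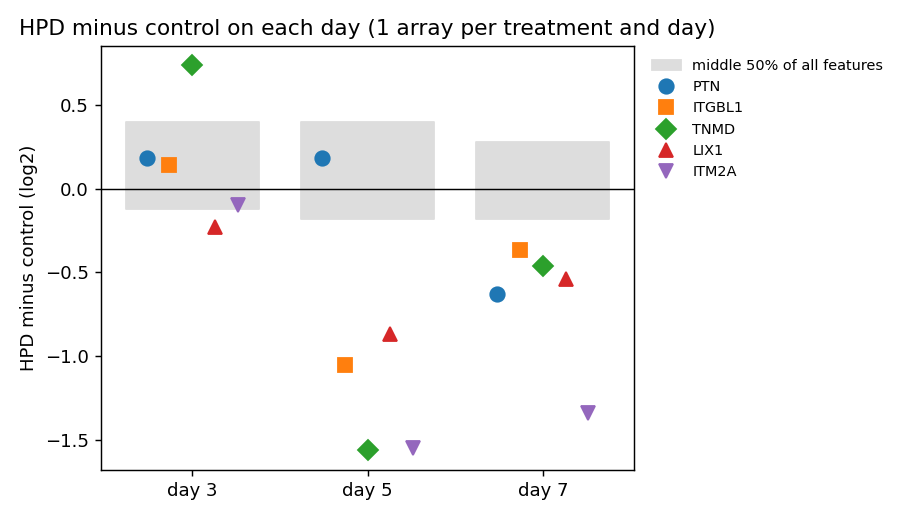
HPD minus control (log2) for each gene on each day, 1 array per treatment and day, with grey boxes for the middle 50% of all 20225 features. On day 5, ITGBL1, TNMD, LIX1 and ITM2A lie below the grey box, and on day 7 all 5 genes do.

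Close relatives of PTN, ITGBL1, TNMD and ITM2A were read whatever their values, while the 5 genes were chosen for theirs. LIX1L, the relative set for LIX1, was not among the features tested. MDK, which encodes midkine, the other member of the pleiotrophin family, was higher on day 7 than on day 3 by 1.19 in HPD and 0.87 in control defects. ITM2B, a paralog of ITM2A, was higher by 0.87 in HPD and 1.003 in control defects, while its other paralog ITM2C differed by -0.16 and -0.01. CNMD, which encodes chondromodulin, the nearest relative of tenomodulin, differed by 0.02 in HPD and -0.05 in control defects and was not well above background on the HPD array of day 7. The integrin chain gene ITGB1 differed by 0.15 in HPD and 0.73 in control defects, and ITGB5 by -0.32 and 0.11. The lowest limma adjusted p among these relatives for day 7 minus day 3 was 0.159, for ITM2B.

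Among genes of pleiotrophin signalling, 12 of 18 listed were tested, with 8 higher and 3 lower on day 7 in both treatments and a median of 0.39. The shares of all features were 34.4% higher and 36.1% lower in both. The receptor gene PTPRZ1 was higher by 2.17 in HPD and 1.07 in control defects, and the syndecan gene SDC4 differed by -0.54 and -0.86. Of 20 integrin chain genes, 8 were higher and 9 lower in both treatments, with a median of -0.09. ITGA10, a collagen-binding alpha chain, was higher by 2.33 in HPD and 2.06 in control defects, and ITGB2, the leukocyte beta chain, differed by -1.24 and -2.06. Of 5 other BRICHOS genes, 1 was higher and 2 were lower in both, with a median of -0.01, but all 5 were higher in both with the normexp correction.

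The label of connective tissue progenitors was set beside a list of such markers, of which 11 of 25 were tested. Of these, 6 were higher and 5 lower on day 7 in both treatments, against 34.4% and 36.1% of all features. The median of 0.07 lay near that of all features. The mesenchymal factor gene PRRX1 was higher by 1.13 in HPD and 1.104 in control defects, and the matrix gene DPT by 1.53 and 3.4008, whereas NT5E, which encodes the surface marker CD73, differed by -2.09 and -1.53. This list does not bear out the label. It cannot decide it either, since it does not show which cells held the 5 genes. The 5 genes are called by their own names. Of 13 tendon and ligament genes, 9 were higher and 1 lower in both, with a median of 0.56. The collagen gene COL14A1 and the transcription factor gene MKX stood highest, but on both day 3 arrays neither stood well above background, so no size is given for them.

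Markers of other cells were read beside these values, and beside the 34.4% of all features higher and 36.1% lower in both treatments. The 11 osteoblast genes had 8 higher and 1 lower in both treatments (median 0.88), and the 9 cartilage genes 6 higher and 0 lower (median 0.19). The 10 T cell genes, a type in which ITM2A is known in the mouse, had 0 higher and 9 lower (median -1.02). The 9 muscle genes had 3 higher and 4 lower (median -0.13). The 8 neutrophil genes had 1 higher and 7 lower, with a median of -2.56 in HPD and -5.62 in control defects, and the 7 macrophage genes had 0 higher and 6 lower (median -0.83). Their part in the values of the 5 genes was not tested.

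The remaining marker lists gave medians of 0.09 for 7 endothelial and mural genes and -0.07 for 7 brain and meninges genes. Of the latter, 1 was higher in both treatments, or 6 with the normexp correction. The medians were -1.17 for 5 adipocyte genes and -0.05 for 6 red cell genes. The endothelial and mural list was mixed, with 3 genes higher and 2 lower in both treatments. ACTA2 was higher by 2.27 in HPD and 2.39 in control defects, and RGS5 by 2.22 and 1.76. PECAM1 differed by -1.06 in HPD and -0.89 in control defects. Over all lists, 0 of 140 genes passed limma's adjusted test for day 7 minus day 3, and 24 higher (17.1%) and 27 lower (19.3%) had an unadjusted p under 0.05, against 10.7% higher and 10.1% lower of all features. The lists were chosen with earlier results of these arrays known, so their counts are descriptions.

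**Figure D5:**
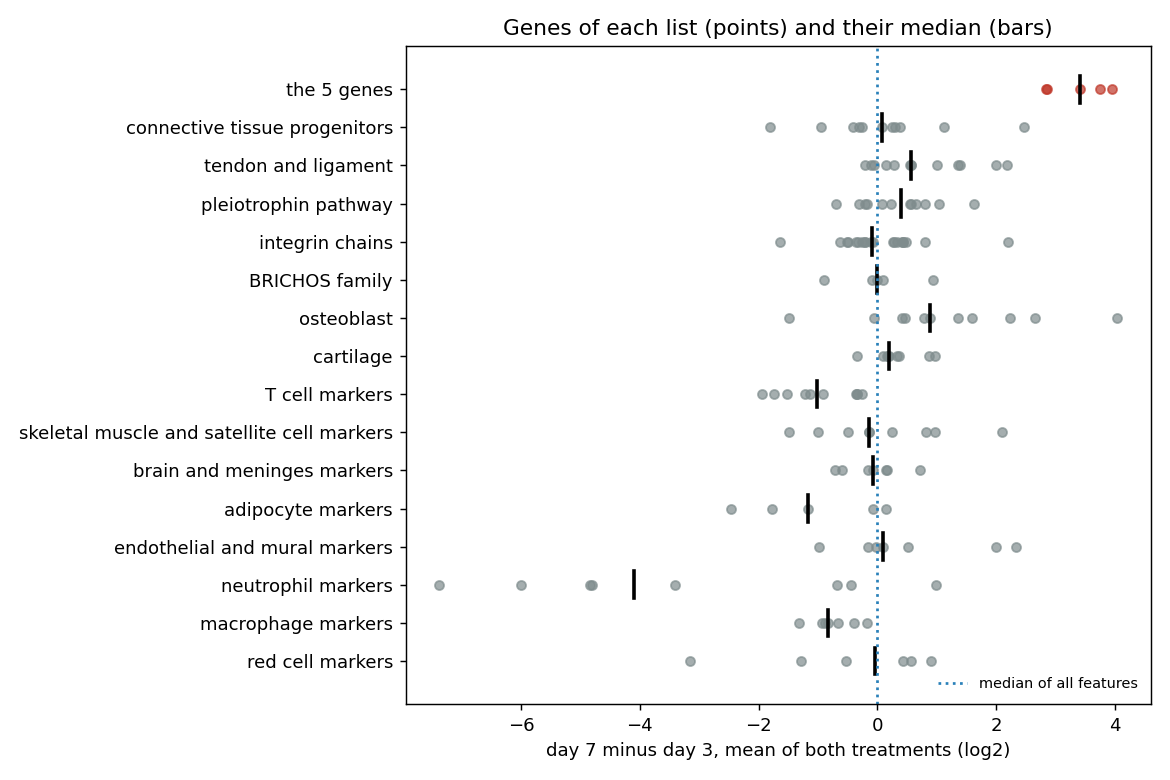
Day 7 minus day 3 (log2, mean of both treatments) for each gene of a list (points) with the list's median (bar) and the median of all features (dotted line). The 5 genes lie between 2.83 and 3.94, and the connective tissue progenitor list has its median at 0.07.

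The genes whose levels followed each of the 5 most closely over the 6 arrays were taken from 2436 named features. These were well above background on all 6 arrays and spanned at least 1 log2 unit. The correlations describe 6 arrays that share days and slides, and high values were common. The closest genes were DDIT4L, BCKDHB and CCDC191 for PTN (r of 0.992, 0.990 and 0.989), POLI, AAGAB and CTSF for ITGBL1 (0.995, 0.991 and 0.989), and REEP3, DPY19L4 and ABCD4 for TNMD (0.999, 0.996 and 0.996). For LIX1 they were OGN, GNRH1 and SNX7 (0.995, 0.995 and 0.994), and for ITM2A DTWD1, SSPN and P4HA2 (0.999, 0.998 and 0.996). OGN, the first gene in the ranking, was lower in HPD defects by -1.56 on day 5 and -0.99 on day 7. Between the 5 genes, r ran from 0.769 for PTN and ITGBL1 to 0.975 for LIX1 and ITM2A, with 0.95 for TNMD and LIX1. An r over 0.95 was reached by 167 of the 2436 features for TNMD and 98 for LIX1. It was reached by 91 for ITGBL1, 70 for ITM2A and 26 for PTN.

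TNMD and ITM2A lie on the X chromosome, which holds 4.33% of the 14587 features with a coordinate and had a median day 7 minus day 3 difference of 0.02. Tested features within 500 kb numbered 2 for PTN, 1 for ITGBL1, 8 for TNMD, 5 for LIX1 and 3 for ITM2A. DGKI, which encodes a diacylglycerol kinase, lies 137 kb from the PTN probe and was the one neighbour at least 2-fold higher on day 7 in both treatments, by 1.16 in HPD and 1.07 in control defects. CHRM2, on the other side of PTN, differed by -0.83 in HPD and -0.30 in control defects. Of the neighbours, 3 of 8 near TNMD, 1 of 5 near LIX1, and none near ITGBL1 or ITM2A were higher in both treatments, against 34.4% of all features.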

How the data were processed

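RNA of newly formed tissue was amplified from 0.2 μg and labelled with Cy3, per the labels' protocols. What was deposited is the linear intensity of each spot, made with Agilent Feature Extraction 10.5.1.1 on an oryCun2 rabbit array with background subtraction, per the file headers. No step between arrays is recorded there.

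From these, log2 of the processed intensity minus the array's 75th percentile was computed. Outlier spots were left out, which removed 41 probes of 43603, and replicate spots were averaged per probe. Gene names came from the array's columns and RefSeq names of mOryCun1.1, used for names only: 23736 had 1 symbol, 308 several and 19518 none. The product names for 6 symbols, the 500 kb window and the comparison of probes were chosen after the values were seen. Limma 3.58.1 in R 4.3.3 (data.table, version 1.17.8) fitted day and treatment over 6 arrays, with Benjamini-Hochberg adjustment over 20225 features, and was tested on simulated data. The 2 arrays of each day were taken to share their animals. Further work was done in Python 3.11.15, pandas 2.3.3, numpy 2.4.6, scipy 1.17.1 and matplotlib 3.10.9.

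The genes, lists and tests were chosen with earlier results of these arrays known. Named besides the 5 genes are their family relatives, the 3 genes most like each, up to 2 highest and 2 lowest genes of a list, and the genes next to the 5 in the ranking (DMP1, GLT8D2). COL11A2, POSTN, OMD, ROBO1, DGKI and CHRM2 fall outside this rule and were named after their values were seen. Alternatives were other scalings, normexp background, the mean of all probes, other filters, days left out and no day block.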

Additional observations from a re-analysis of the deposited data

Results flagged for a closer look

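For 3 of the genes, the difference between HPD and control defects had opposite signs on different days. PTN was 0.18 higher in HPD defects on day 3 and 0.18 higher on day 5, and differed by -0.63 on day 7. With scaling to the array median, its difference was 0.01 on day 3 and 0.05 on day 5. ITGBL1 differed by 0.14 on day 3, -1.05 on day 5 and -0.37 on day 7, but its day 3 value was -0.03 with scaling to the array median and 1 of its 4 probes gave -0.05 on that day. TNMD differed by 0.74 on day 3, -1.56 on day 5 and -0.46 on day 7. It was read at a dim signal, and its day 3 value was 0.17 with normexp and 0.43 with quantile normalization. Each value is the difference between 2 arrays, and the difference between days was not tested.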

How the results depend on the processing

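The graft effect over 3 days changed sign for PTN without day 7 (0.18) and for TNMD without day 5 (0.14). For ITGBL1, LIX1 and ITM2A it was negative under all 10 alternatives, but some of these could not change it. The other filters and the fit without the day block return the main estimate by design. So does the mean of all probes for TNMD and LIX1, which have 1 probe each. No feature was called for the graft effect under any of the 10 alternatives, the smallest limma adjusted p being 0.0815 to 0.875. With normexp background, day 7 minus day 3 was 3.37 for PTN, 1.88 for TNMD and 1.31 for LIX1, the median over all features was 0.17, 1033 features were called for day 7 minus day 3 and 12 for day 5 against the midpoint. Requiring a signal well above background on all 6 arrays gave 5 calls for day 7 minus day 3 and 1 for the midpoint; quantile normalization and no filter gave 0 for day 7 minus day 3, against 1 in the values reported. The cause was not tested. Of the remaining values, 121 for the main results kept their direction and their side of the threshold, or for values with no test and for counts stayed within their limits, as did 85 list counts, and 5 list counts moved by over 1.5 times. The 121 include estimates that another filter or the lack of a day block could not alter. Sizes moved more: the graft effect on ITGBL1 was -0.11 without day 5, on TNMD -1.01 without day 3, on PTN -0.22 without day 3 and on LIX1 -0.31 with normexp, and the midpoint difference with normexp was 0.27 for LIX1 and 0.06 for TNMD. The day block pairs HPD with control; without it the adjusted p of the 5 genes was 0.899 to 0.997. Signal over background limits TNMD and LIX1 most.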
